A study of Mus musculus with 6 samples.

Results

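Carbonic anhydrases are the enzymes that interconvert carbon dioxide and bicarbonate. Here 10 genes of this family (Car2, Car3, Car4, Car5b, Car7, Car8, Car9, Car12, Car13 and Car14) were followed in the mouse prostate. Their rows were found by gene symbol in the deposited table, which holds 34745 genes. The genes were chosen on the family name with their measured log2 fold changes in these same libraries known, so their differences between the groups are given as a description, without a test. Prostates were taken from male C57BL/6 mice, and RNA of 3 animals per group was sequenced as paired-end TruSeq libraries, with each library made from a different animal. In the T + E2 group a slow-release pellet of testosterone (T) and estradiol (E2) lay under the skin for 12 weeks and was renewed monthly. In the control (CON) group the skin was only incised and closed, and no pellet without hormone was given. Both hormones came in the same pellet, so their effects cannot be told apart in this design. The model was made to study benign prostatic hyperplasia with obstruction of the bladder outlet.

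A carbonic anhydrase holds a zinc ion in its active site and turns carbon dioxide and water into bicarbonate and a proton, or runs the reaction backwards. The isozymes share this reaction and differ in where they lie. Some are dissolved in the cytosol, others sit in mitochondria, and others face the outside of the cell from its membrane. In epithelia that secrete fluid they supply bicarbonate and protons to exchangers and pumps, and in the male tract this sets the acidity of the fluid in which sperm are kept.

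The zinc ion is held by 3 histidines. The stretch of the coding sequence that encodes the first and second of them is shown for 3 members on which the results below turn, with both codons in capitals, 5′ to 3′, from GENCODE M21 transcripts on build GRCm38.
Car2: atccagtttCACtttCACtggggctcatct
Car3: cgccaattcCATcttCACtggggctcctct
Car12: gagcagctgCACttgCACtgggggaaccgc
These 3 members carried all 3 histidine codons. Over the whole reading frame, the translated members were at most 60.8% identical to each other (Car3 with Car13).

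Values are given as counts per 1000000 (CPM) after scaling by the trimmed mean of M-values (TMM), and as FPKM, which also divides by gene length and was used wherever levels of different genes were compared. A positive log2 fold change means a higher level in the T + E2 group. Gene counts summed to between 14816146 and 16555549 per library. A count of 3, used as the detection limit for counting error alone, equalled 0.183 to 0.208 CPM. The summed level of 8 seminal vesicle markers was 10325 CPM in CON 2 and 643 CPM in T + E2 2 but at most 4.11 CPM in the other 4 libraries, so results were also computed without both of these libraries. In bulk tissue, fewer cells of a type and less RNA per cell cannot be told apart.

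Of the 9 members with enough counts to be fitted, 3 passed an adjusted p of 0.05 together with an absolute log2 fold change over 1 in edgeR's quasi-likelihood fit, as did 7.64% of all 15580 genes tested. Car12 was higher in the T + E2 group, a direction in which 4.27% of all genes tested passed. Car2 and Car8 were lower, as were 3.38%. In 4 of the 10 members the groups did not overlap. Car12 lay higher in all T + E2 mice than in any CON mouse, as did 20% of the genes tested, and Car2, Car7 and Car8 lay lower, as did 20.7%. The median log2 fold change of those 9 fitted members was -0.31, against -0.002 over all genes tested. Because measured values chose the members, nothing is read from these shares. The gene lists used below were also chosen with earlier results of these data known, and their shares are given as a description.

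**Figure D1:**
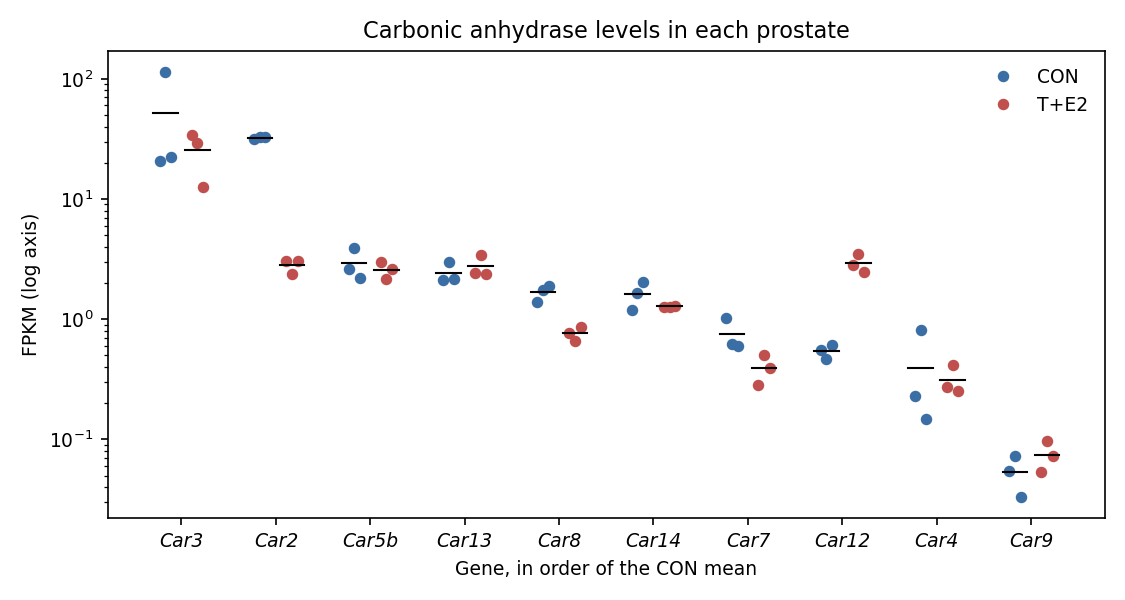
FPKM of each carbonic anhydrase in each mouse (log axis), with blue points for CON, red points for T + E2 and a bar at the group mean, 3 mice per group. Car2 and Car12 show wide gaps between the groups in opposite directions, and 1 CON mouse stands far above the others for Car3.

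The cytosolic enzyme Car2 (ENSMUSG00000027562, chr3:14886273-14900770 of GRCm38) is the fast, widely expressed isozyme of secretory epithelia, kidney, osteoclasts and red cells. It had 94.5, 97.6 and 100.8 CPM in the CON mice. In the T + E2 mice it had 9.68, 7.37 and 9.21 CPM. The CON values lay within a few percent of each other, and every T + E2 value was far below them. The group means were 97.6 ± 3.17 and 8.75 ± 1.22 CPM (SD, n = 3 in each), and the log2 fold change was -3.48 with a standard error of 0.12, or 11.2-fold lower. Over the alternative fits its log2 fold change lay between -3.56 and -3.13. The stretch of Car2 shown above belongs to an enzyme with all zinc-binding histidines.

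Other markers moved along with Car2. The summed level of 10 genes of the prostate secretory epithelium was 42145 to 56404 CPM in the CON mice and 22554 to 26122 CPM in the T + E2 mice. That list did not move as 1 block. Pbsn (probasin) and Tgm4, both products of the mouse prostate, fell by 3.29 and 2.91 on the log2 scale, whereas Msmb and Defb50 rose by 1.10 and 1.495 (edgeR adjusted p = 2.45e-05, 0.000158, 0.00122 and 0.00235). Msmb no longer passed without CON 1. The most abundant of the 10 by mean FPKM over all 6 libraries, the measure used for each list here, was Defb50, at 2183 ± 576.1 CPM in CON and 6152 ± 1122 CPM in T + E2 (SD, n = 3 in each). In the CON mice alone Pbsn was higher, with a mean of 11579 FPKM against 5905 FPKM for Defb50. The part of these cells in the Car2 difference was not tested.

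Red cells carry Car2 too. All 5 tested genes of the red cell list passed as higher (log2 fold changes of 1.51 to 2.38), whereas Car2 was lower. Over all genes tested, 4.27% passed as higher. The list's 8 genes together had 54.0 to 66.2 CPM in the CON mice and 134.1 to 423.3 CPM in the T + E2 mice, the highest value belonging to T + E2 2. The most abundant of them, Hba-a1, an alpha-globin gene, had 20.9, 15.5 and 16.5 CPM in CON and 37.3, 119.0 and 40.5 CPM in T + E2. Without CON 3 none of the 5 passed. Without CON 2, Hba-a1, Hba-a2 and Hbb-bt no longer passed, and without CON 1 Hbb-bt did not. Car1, the other carbonic anhydrase known from red cells, had at most 3 counts in every library. The part of red cells in the Car2 values was not tested.

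Car3 (chr3:14863512-14872523) encodes a cytosolic enzyme of low activity that is abundant in skeletal muscle and fat. It had the highest mean FPKM of the members in both groups, in CON only because of CON 2, and the widest spread. The CON mice had 75.0, 413.5 and 84.3 CPM. The T + E2 mice had 133.9, 109.1 and 45.9 CPM. The groups overlapped, and CON 2 alone lay above all T + E2 mice. The means were 190.9 ± 192.8 and 96.3 ± 45.4 CPM (SD, n = 3 in each). The log2 fold change was -0.99, with a standard error of 0.67. Without CON 2 the log2 fold change turned to 0.27, and without both libraries rich in seminal vesicle markers it was 0.17.

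Car3 followed the adipocyte markers from mouse to mouse. The summed level of 8 adipocyte genes was 151.4, 809.1 and 218.6 CPM in the CON mice. In the T + E2 mice it was 234.1, 168.5 and 105.2 CPM. CON 2 was the highest and T + E2 3 the lowest library for Car3 and for the adipocyte sum alike. Car3 made 0.386 to 0.648 CPM per CPM of the adipocyte sum, a narrower range than that of either measure. Of 7 adipocyte genes tested none passed both thresholds in edgeR and none had an adjusted p under 0.05, as 19.6% of all genes tested had, while 3 were lower at an unadjusted p under 0.05. The remaining gene of the list, Lep (leptin), had too few counts for the filter and passed in DESeq2 and in edgeR with no filter. The median log2 fold change of the 7 was -1.42. Cfd (adipsin), the most abundant of the list, had 56.9, 375.4 and 85.9 CPM in CON and 100.4, 61.7 and 31.5 CPM in T + E2.

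**Figure D2:**
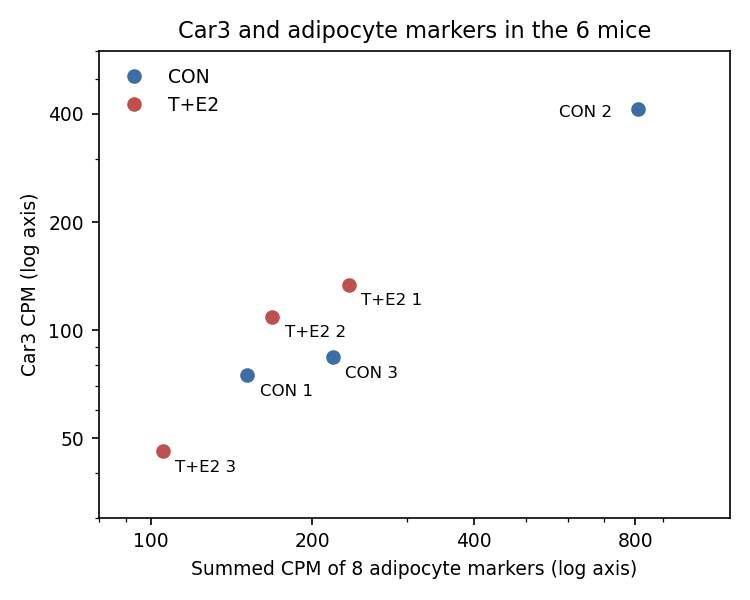
Car3 (CPM, log axis) against the summed CPM of 8 adipocyte markers (log axis) in each of the 6 mice, blue for CON and red for T + E2. The points lie along 1 band from T + E2 3, lowest on both axes, to CON 2, highest on both, and the groups are mixed along it.

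Skeletal muscle is the other known site of Car3. The 10 muscle genes summed to 88.0, 367.7 and 203.8 CPM in CON, against 137.2, 110.0 and 300.0 CPM in T + E2. CON 2 was the highest library for the muscle sum, as for Car3, and T + E2 3 was the second highest for muscle genes and the lowest for Car3. Acta1 (skeletal muscle actin), the most abundant of the muscle list, had 117.6 ± 55.5 CPM in CON and 102.2 ± 25.9 CPM in T + E2 (SD, n = 3 in each). None of the 9 muscle genes tested passed in edgeR, in DESeq2 or at an unadjusted p under 0.05. The part of fat or muscle in the Car3 values was not tested.

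Car13 (chr3:14641727-14663002) is a cytosolic isozyme found in many tissues, the male and female tracts among them. Its counts were 72, 102 and 80 in CON and 85, 130 and 81 in T + E2. The groups overlapped, and replicate 2 was the highest in each. The log2 fold change was 0.22 with a standard error of 0.22, from 5.50 ± 1.05 to 6.40 ± 1.33 CPM (SD, n = 3 in each).

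Car7 (chr8:104534700-104550343) is a cytosolic isozyme best known from neurons. The counts were 53, 32 and 33 in CON against 15, 29 and 20 in T + E2. Every T + E2 mouse lay below every CON mouse, though T + E2 2 came close to CON 3. The means were 2.56 ± 0.821 and 1.38 ± 0.366 CPM (SD, n = 3 in each). The log2 fold change of -0.88 (standard error 0.33) did not reach the threshold of 1, and the adjusted p was not under 0.05 either. Without T + E2 2 the log2 fold change was -1.10, yet Car7 passed both thresholds in no alternative fit.

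Car5b (chrX:163976822-164027997) encodes a mitochondrial isozyme, which provides bicarbonate to biosynthesis in the organelle. It had 17.1, 25.1 and 14.7 CPM in CON and 20.7, 14.3 and 17.02 CPM in T + E2. The groups overlapped, and the log2 fold change of -0.13 was smaller than its standard error of 0.22. Without CON 2 the log2 fold change was 0.12, so no direction can be given for Car5b.

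Among the membrane-bound isozymes, Car12 (ENSMUSG00000032373, chr9:66713686-66766845) spans the membrane with its active site outside the cell and is known from kidney, endometrium and the ducts of the male tract. The CON mice had 68, 57 and 81 counts. The T + E2 mice had 350, 477 and 303 counts. All T + E2 values lay several times above the CON values, and T + E2 2 was the highest. The means were 4.45 ± 0.675 and 24.5 ± 4.42 CPM (SD, n = 3 in each), a log2 fold change of 2.46 with a standard error of 0.18, or 5.50-fold higher. Its log2 fold change was smallest, at 1.34, with limma on log2(FPKM + 1), where the added 1 exceeds the CON level of 0.545 FPKM, and lay between 2.21 and 2.58 otherwise.

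Some urothelial and epididymal markers were also higher beside Car12. The 6 urothelium genes summed to 423.1 to 643.2 CPM in CON and to 1374 to 1703 CPM in T + E2. Of the 4 urothelium genes tested, Upk1a and Upk2 rose, by 1.80 and 2.20 on the log2 scale (adjusted p = 0.00109 and 0.00322, edgeR). Among all genes tested 4.27% passed in that direction. Upk1a, the most abundant of the list, is a uroplakin of the urothelial surface and had 373.9 ± 117.0 CPM in CON and 1306 ± 121.7 CPM in T + E2 (SD, n = 3 in each). Of the 10 epididymis genes, 5 had no counts in any library, 3 were tested, and 2 of them, Adam7 and Spink8, rose, beside the same 4.27%. In 8 of the 10 the groups overlapped. The list summed to 42.0 to 51.0 CPM in CON and 83.0 to 91.3 CPM in T + E2, and Spink8, its most abundant gene, had 22.5 ± 4.55 and 49.9 ± 3.60 CPM (SD, n = 3 in each). Spink8 no longer passed without CON 2. The part of such cells in the Car12 difference was not tested.

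Car14 (chr3:95897768-95904691), another membrane-spanning isozyme, is known from liver, kidney and retina. It had 4.11, 5.65 and 7.23 CPM in CON, and the T + E2 mice lay close together at 4.70, 4.51 and 4.54 CPM. The T + E2 values fell inside the CON range, and the log2 fold change was -0.31 with a standard error of 0.23. The Car14 locus overlaps Aph1a on the opposite strand by 521 bases. Whether the counting used the strand is not given in the sources used here, so reads of the overlap could belong to either gene.

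Car4 (chr11:84957786-84966044) is anchored by a lipid to the outer face of the cell membrane and is known from capillaries of lung and muscle, kidney and the epididymis. The counts were low, with 10, 35 and 7 in CON and 12, 20 and 11 in T + E2. Replicate 2 was the highest in each group, and the groups overlapped. The log2 fold change of -0.28 had a standard error of 0.60 and turned to 0.75 without CON 2. Of the 8 endothelial genes tested none passed both thresholds in edgeR or DESeq2. An adjusted p under 0.05 was reached by 1 (also 1 at an unadjusted p under 0.05), beside 19.6% of all genes tested. The 8 endothelial genes summed to 130.9 to 181.0 CPM in CON and 172.5 to 210.1 CPM in T + E2. Cdh5, the most abundant of them, had 28.6 ± 5.01 and 24.7 ± 2.69 CPM (SD, n = 3 in each).

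Car9 (chr4:43506966-43513729) is the membrane isozyme best known as a target of the hypoxia-inducible factors. It had 3, 4 and 2 counts in CON and 3, 6 and 4 in T + E2, too few to be fitted. The pooled ratio of T + E2 to CON was 1.46, with a 95% counting interval from 0.576 to 3.86, so a difference was not detectable at this depth. An antisense gene, Gm12454, overlaps Car9 by 1782 bases.

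Car8 (ENSMUSG00000041261, chr4:8143362-8239041) encodes a carbonic anhydrase-related protein without enzyme activity, known from Purkinje cells of the cerebellum as a partner of the inositol trisphosphate receptor. The CON mice had 79, 101 and 116 counts. The T + E2 mice had 45, 42 and 49 counts. The groups did not overlap. The means were 6.39 ± 1.05 and 2.98 ± 0.374 CPM (SD, n = 3 in each). The log2 fold change was -1.10, or 2.14-fold lower, and its standard error 0.21. Car8 lay near the fold threshold. It no longer passed without CON 3 (-0.99), without T + E2 2 (-0.998), without both replicate 2 libraries (-0.97) or with limma on log2(FPKM + 1) (-0.60), always in the same direction. The Car8 locus overlaps Gm11799, a processed pseudogene on the same strand, by 460 bases. It also overlaps Gm25355, a miRNA gene on the opposite strand, by 101 bases.

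**Figure D3:**
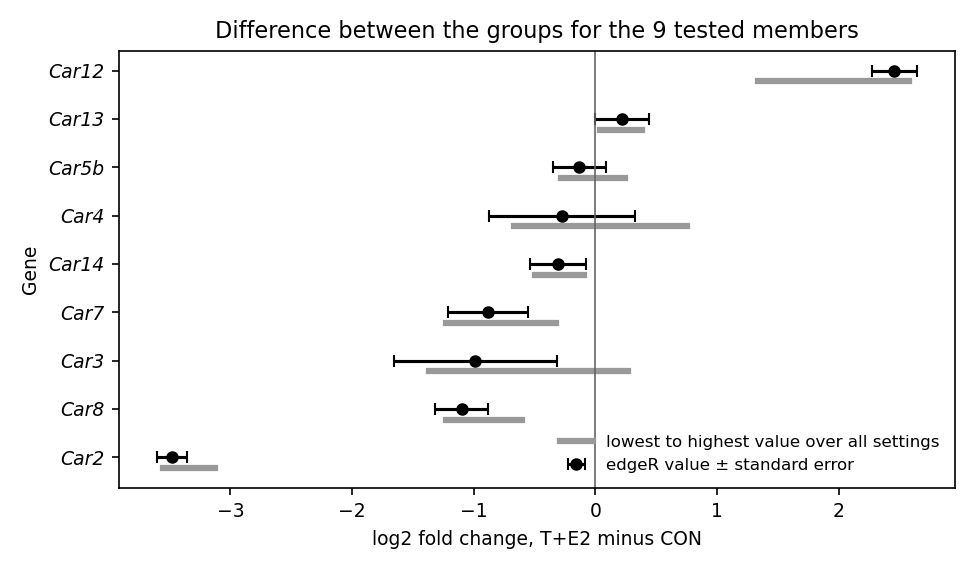
Log2 fold change (T + E2 minus CON) of the 9 fitted carbonic anhydrases, as black points with bars of 1 standard error, above grey lines from the lowest to the highest value over all settings. Car12 at 2.46 and Car2 at -3.48 stand apart, and the grey lines of Car3, Car4 and Car5b cross 0.

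Order by FPKM, which corrects for gene length, differed between the groups. In the CON mice Car3 (52.3 ± 53.3 FPKM) and Car2 (32.3 ± 0.710 FPKM) led. Without CON 2 Car2 (31.5 and 32.7 FPKM) lay above Car3 (20.5 and 22.5 FPKM), so the first place of Car3 in CON rests on that mouse. Next came Car5b (2.92 ± 0.878 FPKM) and Car13 (2.42 ± 0.489 FPKM), which overlapped, and then Car8 (1.68 ± 0.259 FPKM) and Car14 (1.62 ± 0.424 FPKM), which overlapped too. Car7 (0.750 ± 0.245 FPKM), Car12 (0.545 ± 0.0743 FPKM) and Car4 (0.395 ± 0.358 FPKM) formed an overlapping group above Car9 (0.0533 ± 0.0194 FPKM). All of these are SD with n = 3.

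In the T + E2 mice Car3 stood alone at 25.3 ± 11.4 FPKM. Behind it Car12 (2.93 ± 0.518 FPKM), Car2 (2.82 ± 0.373 FPKM), Car13 (2.75 ± 0.581 FPKM) and Car5b (2.59 ± 0.432 FPKM) each overlapped the next, so their order is not settled. Car14 (1.28 ± 0.0180 FPKM), Car8 (0.763 ± 0.1003 FPKM), Car7 (0.394 ± 0.110 FPKM), Car4 (0.313 ± 0.0873 FPKM) and Car9 (0.0742 ± 0.0221 FPKM) followed (SD, n = 3), and of these only Car7 and Car4 overlapped. Car12 was thus the eighth of the 10 members in CON by its mean and the second in T + E2.

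The make-up of the family, leaving out the variable Car3, differed accordingly. The other 9 members summed to 42.7 ± 2.16 FPKM in CON and 13.9 ± 0.498 FPKM in T + E2 (SD, n = 3). Car2 made up 75.8% ± 2.63 of that sum in CON and 20.4% ± 3.28 in T + E2. Car12 made up 1.28% ± 0.218 in CON and 20.99% ± 2.98 in T + E2. The 4 membrane isozymes Car4, Car9, Car12 and Car14 together went from 6.09% ± 0.964 to 33.0% ± 3.22. The ratio of Car2 to Car12 in FPKM ran from 53.4 to 70.2 among CON mice but only from 0.684 to 1.23 under T + E2. T + E2 2 was the mouse with more Car12 than Car2. These shares restate the differences of Car2 and Car12 on a common scale and are no separate evidence of them.

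**Figure D4:**
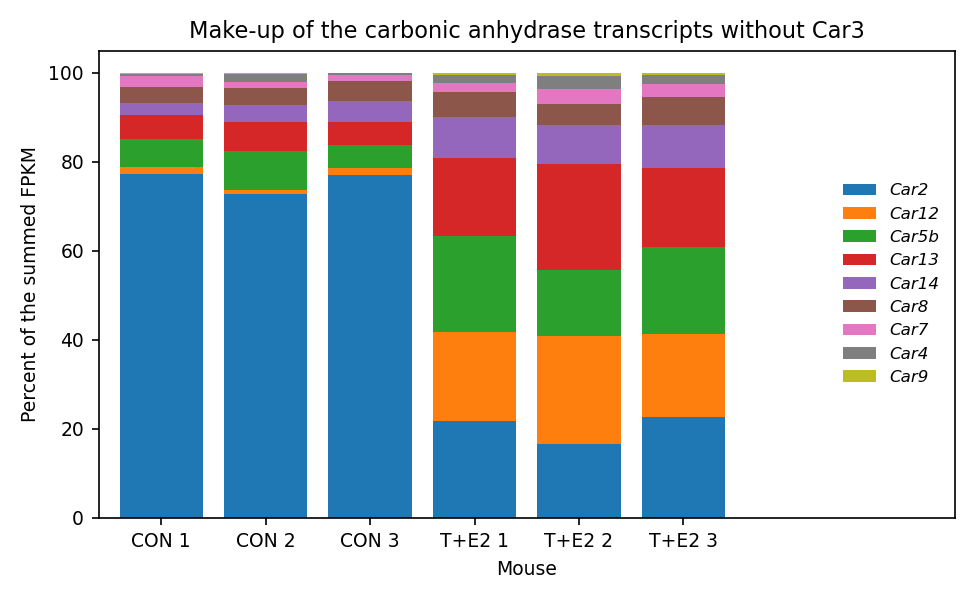
Percent of the summed FPKM that each carbonic anhydrase other than Car3 contributed in each of the 6 mice, as stacked bars. Car2 fills about the same large share of each CON bar (75.8% on average) and a far smaller one in T + E2 (20.4%), where Car12 takes 20.99%.

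Car13, Car3 and Car2 lie beside each other on chromosome 3, with Car1 between Car13 and Car3, over 259.0 kb. The gap is 103213 bases from Car13 to Car1, 55143 from Car1 to Car3 and 13749 from Car3 to Car2. Neighbours in this cluster had unlike values. Car2 differed 11.2-fold between the groups, Car3 overlapped with a spread set by CON 2, Car13 overlapped with a fold change near 1, and Car1 was at the detection limit. The transcripts of Car2, Car3 and Car13 had no stretch of at least 100 bases at 80% identity with another gene. Such stretches were found for Car5b, Car8 and Car9, shared with 419, 297 and 239 genes and at most 357, 128 and 150 bases long, and reads from them could be shared.

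Of the 8 further genes of the family, 4 were tested. Car11, a secreted relative without enzyme activity, had 79, 118 and 104 counts in CON and 119, 124 and 108 in T + E2, giving 0.24 ± 0.19 (log2 fold change ± standard error). Car15, a lipid-anchored isozyme, had 5, 36 and 25 counts in CON and 22, 22 and 13 in T + E2, giving -0.20 ± 0.58. Neither passed. Car1 and Car6, the secreted isozyme of saliva, had at most 3 counts in every library, as did Car5a, the mitochondrial isozyme of liver. Car10, a second secreted relative without activity, had 12, 5 and 4 counts in CON and 5, 2 and 1 in T + E2.

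The remaining pair, Ptprg and Ptprz1, are receptor tyrosine phosphatases that carry a carbonic anhydrase-like domain outside the cell and bind contactins with it. Ptprz1 had 37.7, 19.8 and 24.8 CPM in CON and 6.71, 7.61 and 8.14 CPM in T + E2. Its log2 fold change was -1.87 ± 0.24 (standard error), and it fell with an edgeR adjusted p of 0.00149. Of the 14 alternative fits that tested it, it failed only limma on log2(FPKM + 1). Ptprg had 62.1, 47.7 and 41.2 CPM in CON and 105.6, 124.8 and 73.3 CPM in T + E2. It rose by 1.01 (standard error 0.22, adjusted p = 0.0153, edgeR), just past the fold threshold, and failed 9 of 15 alternative fits, those without CON 2, CON 3, T + E2 1 or T + E2 2 among them. Over the alternatives the adjusted p of Ptprg ranged from 1.43e-05 to 0.121.

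Bicarbonate leaves or enters the cell through exchangers and cotransporters of the Slc4 and Slc26 families. Of 22 genes that carry, pass or sense bicarbonate, 13 were tested. In edgeR 1 fell and 0 rose, beside 7.64% of all genes tested. An adjusted p under 0.05 was reached by 4, 3 of them lower and 1 higher, beside 19.6% of all genes tested. At an unadjusted p under 0.05, 5 fell and 3 rose, and DESeq2 called 2 falls and 1 rise over 22 genes. The median log2 fold change was 0.06. Slc26a6, an anion exchanger of apical membranes, had 5.03, 3.75 and 5.66 CPM in CON and 3.25, 1.95 and 1.94 CPM in T + E2, and fell by 1.02 (standard error 0.28, adjusted p = 0.0403, edgeR). It failed 8 of the 14 alternative fits that tested it, those without CON 1, CON 3, T + E2 2 or T + E2 3 among them, with adjusted p from 0.0234 to 0.128. The other 3 genes with an adjusted p under 0.05 were Slc4a4, the sodium bicarbonate cotransporter (log2 fold change -0.91), Slc26a3 (-0.94) and Slc4a7 (0.80), which were named after their values were seen. Slc26a4, pendrin, the most abundant tested gene of the list by FPKM and likewise named afterwards, had 94.2 ± 12.7 CPM in CON and 98.0 ± 5.02 CPM in T + E2 (SD, n = 3 in each).

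Protons are carried by sodium-proton exchangers (Slc9), by proton-potassium pumps and by the vacuolar pump (V-ATPase). Of 38 such genes 33 were tested, 4 rose and 4 fell, beside the background of 7.64% given above, and the median log2 fold change was 0.02. This list was chosen with earlier results of these data known, so nothing is read from that share. Slc9a3, the sodium-proton exchanger NHE3 of kidney, gut and epididymis, had 1.13, 0.591 and 0.440 CPM in CON and 168.8, 99.8 and 87.3 CPM in T + E2. The rise was 7.36 ± 0.39 (log2, standard error, edgeR adjusted p = 2.35e-05). Atp4a, the catalytic subunit of the gastric proton pump, rose from a mean of 2.75 ± 1.01 CPM to one of 30.1 ± 2.81 CPM (SD, n = 3 mice), by 3.45 (standard error 0.23, edgeR adjusted p = 6.97e-05). Atp12a, the non-gastric pump of the same kind, fell from a mean of 260.1 ± 49.8 CPM to one of 37.9 ± 14.1 CPM (SD, n = 3 mice), by 2.78 (standard error 0.27, edgeR adjusted p = 0.000431).

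The fourth by size of change was Atp6v0a4, a V-ATPase subunit of proton-secreting cells, at 0.265, 0.0657 and 0.566 CPM in CON and 0.899, 1.46 and 1.20 CPM in T + E2. Its rise of 1.95 (standard error 0.56, edgeR adjusted p = 0.0434) rested on levels near the detection limit and failed 11 of the 14 alternative fits that tested it, those without CON 1, without CON 2 or without any single T + E2 mouse among them. The others past both thresholds were Atp6ap1, which rose, and Slc9a9, Atp6v1c2 and Slc9a5, which fell. Most V-ATPase genes did not pass. Of the 6 markers of proton-secreting cells, 2 were tested. The same Atp6v0a4 was the only one past the thresholds, while 4.27% of all genes tested passed as higher. The 6 markers summed to 1.06 to 2.43 CPM in CON and 1.87 to 3.47 CPM in T + E2. Dmrt2, the most abundant of the 6 by FPKM, had 0.499 ± 0.376 and 0.519 ± 0.392 CPM (SD, n = 3 in each).

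**Figure D5:**
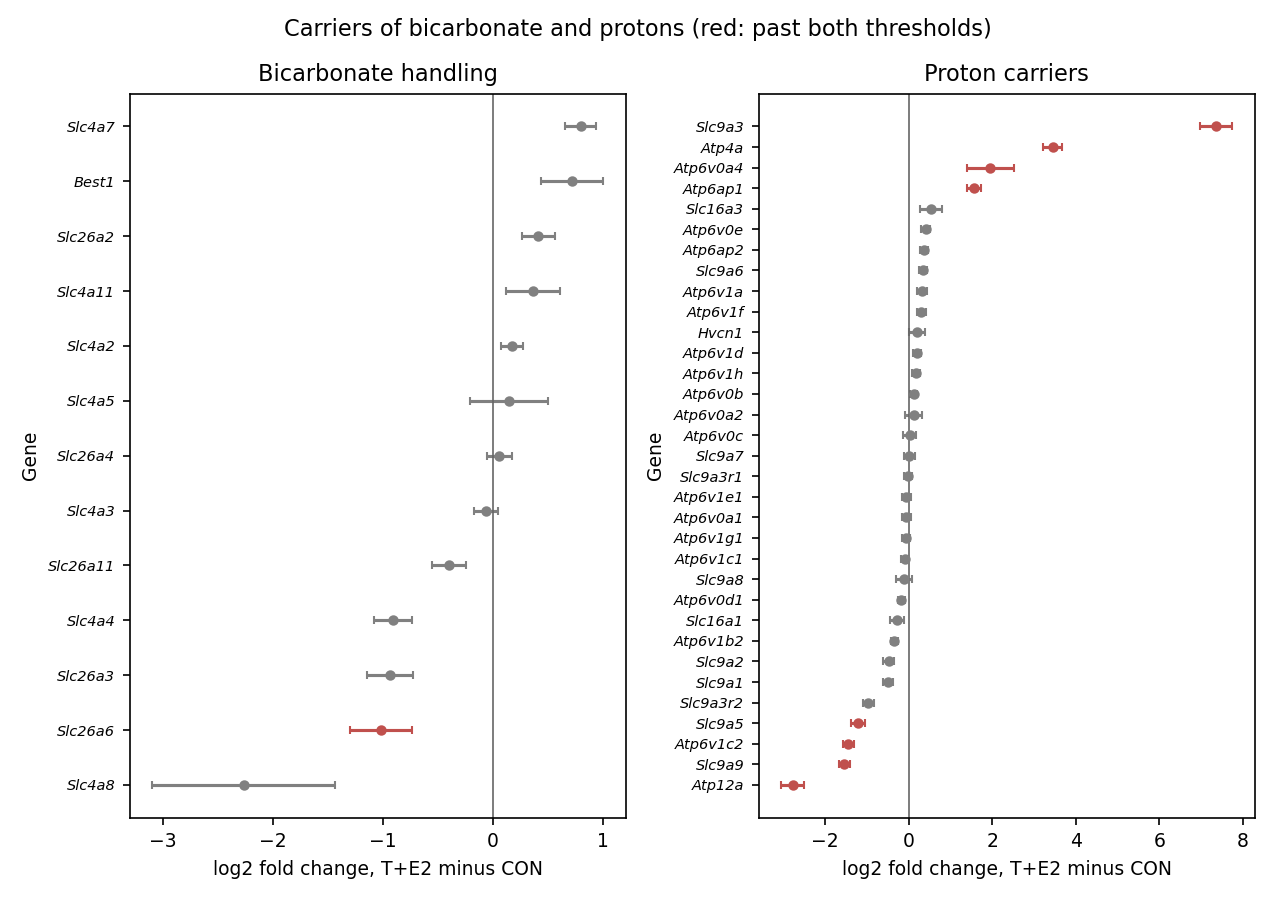
Log2 fold change (T + E2 minus CON) with bars of 1 standard error for the 13 tested genes of bicarbonate handling and the 33 tested proton carriers, red where both thresholds were passed and grey otherwise. In the bicarbonate panel 1 gene is red, and in the proton panel 4 red genes lie on each side of 0, with Slc9a3 at 7.36 farthest out.

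Car9 and Car12 are known targets of the hypoxia-inducible factors, so 20 genes of the hypoxia response were followed. All were tested, and in edgeR 2 rose and 0 fell, beside 7.64% of all genes tested. An adjusted p under 0.05 was reached by 7, all of them higher, beside 19.6% of all genes tested. The median log2 fold change of the 20 was 0.27. At an unadjusted p under 0.05, 10 were higher and 1 lower, and DESeq2 too called 2 rises and 0 falls. Hif1a, the oxygen-regulated subunit, rose from a mean of 59.9 ± 7.08 CPM to one of 139.2 ± 19.7 CPM (SD, n = 3 mice), by 1.22 (standard error 0.14, edgeR adjusted p = 0.000858). Ero1l, an oxidase of the endoplasmic reticulum that is also a hypoxia target, rose from a mean of 23.2 ± 3.40 CPM to one of 70.1 ± 11.3 CPM (SD, n = 3 mice), by 1.60 (standard error 0.15, edgeR adjusted p = 0.0004). Of the other 18, 5 had an adjusted p under 0.05 without reaching the fold threshold. They were Egln3 (log2 fold change 0.996), Pgk1 (0.85), Kdm3a (0.66), Bnip3 (0.50) and Slc2a1 (0.31), named here after their values were seen. The rest of the list had no adjusted p under 0.05 and ran from -0.38 (Ndrg1) to 0.40 (Hk2). Among these were Vegfa (0.09), Ldha (0.18) and Adm (-0.24), likewise named afterwards.

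Promoters of 6 members (Car4, Car5b, Car7, Car9, Car12 and Car14) were found in the RefSeq table of GRCm38.p6, from 250 bases before to 50 bases after the start site. They were searched on both strands for ACGTG, the core letters bound by the hypoxia-inducible factors, for GGTCA, part of an oestrogen receptor site, and for AGAACA, part of an androgen receptor site. ACGTG was found in 19.6% of 32851 promoters and in those of Car4, Car9 and Car14. The match in Car9, the textbook hypoxia target that stayed at the detection limit here, is shown with the core in capitals as read on the plus strand, at chr4:43506996-43507025, starting 18 bases before the start site.
Car9: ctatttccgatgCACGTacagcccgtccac
GGTCA was found in 40.5% of promoters and in Car4, Car7 and Car14, and AGAACA in 19.0% and in Car14. None of the 3 was found in this window of Car12, which says only that these letters are absent from it.

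For the 3 members with the highest mean FPKM, the tested genes outside the family whose log2 CPM ran most closely alongside were found by Pearson's r over the 6 libraries. For Car3 these were Ces1f (0.992), Fabp4 (0.982) and Cyp2e1 (0.982). Fabp4, the fatty acid binding protein of fat cells, belongs to the adipocyte list. For Car2 they were Grin2d (0.999), C1s2 (0.999) and Pmm2 (0.998), and for Car5b Upp1 (0.996), Fam45a (0.965) and Stau1 (0.954). The points are 2 groups of 3 mice, so for Car2 any gene with a wide and even gap between the groups scores high, and all values of a library share its depth and its tissue make-up. For all 3 members the r values given are the highest over all tested genes outside the family. High values therefore come in part from that choice.

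Of the remaining lists, the 6 smooth muscle genes summed to 4085 to 5074 CPM in CON and 3580 to 3921 CPM in T + E2. None of the 6 passed both thresholds in edgeR or DESeq2. With an adjusted p under 0.05, 2 of the 6 were lower, beside 19.6% of all genes tested in either direction. The same number of the 6 were lower at an unadjusted p under 0.05. Acta2, the most abundant of the smooth muscle list, had 1257 ± 125.3 and 886.7 ± 26.7 CPM (SD, n = 3 in each). None of the 3 tested seminal vesicle genes passed in edgeR or DESeq2, and 1 was lower at an unadjusted p under 0.05. Svs4, the most abundant of that list, had 4587 CPM in CON 2 and at most 6.64 CPM in any other library. Without CON 2 and T + E2 2 the log2 fold changes of Car2, Car12 and Car8 were -3.37, 2.21 and -0.97.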

How the data were processed

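RNA-seq of 6 mouse prostates (3 CON, 3 T + E2) was analysed from 1 deposited table. It holds raw counts per gene, which the authors deposited without normalization, and FPKM, which the authors derived by dividing the counts by gene length and library total (1 gene length fitted all libraries within 0.1% in 100% of 17095 genes). The submitters' processing notes name TopHat, Bowtie2 and HTSeq. Their versions, the annotation and the strand setting are not given in the sources used here.

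The counts went into edgeR 4.0.16 (R 4.3.3), whose filterByExpr (minimum count 10, minimum total 15) kept 15580 genes. Libraries were scaled by TMM, and T + E2 was set against CON in a quasi-likelihood test, its p-values adjusted after Benjamini-Hochberg. Passing means an adjusted p below 0.05 with a log2 fold change beyond 1 either way. The standard error is the fold change (log2) over the root of F. The biological coefficient of variation was 18.0%. Each library is a separate animal, and counts within a group differed by 16.7 to 36.4 times sampling noise (chi-square per degree of freedom), so none was counted as a duplicate. The floor and the Car9 interval cover counting error only.

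In simulated data for T + E2 against CON with 15374 tested genes, edgeR found 188 of 199 altered genes and made 6 false calls, and fold changes were off by a median of 0.131 log2. The altered genes were drawn from those well above the detection limit, though a planted fall could bring a T + E2 level near it. The planted changes all exceeded the fold threshold. The recovery therefore does not cover changes near that threshold, such as that of Car8, or genes with few counts. Alternatives were DESeq2 1.42.0 and its size factors, total counts, other filters, limma 3.58.1 on log2(FPKM + 0.1) and log2(FPKM + 1), a replicate block, each library left out, and, chosen after seeing the data, both replicate 2 libraries left out. Transcripts were compared with BLAST+ 2.17.0, proteins translated from GENCODE M21 transcripts were aligned with MAFFT 7.526, and figures drawn with matplotlib 3.10.9.

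The members and lists were chosen with earlier results of these data known. By rule the text names all members and other family genes, up to 4 genes past both thresholds with the largest change from each pathway list, the most abundant gene of each marker list, and the 3 genes most like each of the 3 most abundant members. Exceptions are marked or are members of a list named to describe its count.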

Additional observations from a re-analysis of the deposited data

How the results depend on the processing

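Of 15 alternatives, most changed no call on the carbonic anhydrases. The number past both thresholds was 3, and 2 to 3 when 1 library was left out. It was 2 with limma on log2(FPKM + 1) and without both replicate 2 libraries, an alternative chosen after seeing the data. Car2 and Car12 passed in all 15, a description only, since both were chosen with these values known. The signs of Car3, Car4 and Car5b turned without CON 2 and again without both replicate 2 libraries, and no other fitted member changed sign. Under a filter of at least 1 FPKM in at least 3 samples Car4 and Car7 were not fitted.

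All genes past the thresholds numbered 1191, and 561 with limma on log2(FPKM + 1), where the added 1 shrinks fold changes of low genes. The number was 972 to 1152 with 1 library left out. Bicarbonate genes past the thresholds numbered 1, and 0 with a filter of at least 1 FPKM in at least 3 samples, with limma on log2(FPKM + 1) and under the replicate block. They numbered 3 with DESeq2 and with no filter on low counts, 2 without both replicate 2 libraries, and 1 to 3 with 1 library left out. The genes and directions changed too. The 1 call without CON 1, without CON 3 and with limma on log2(FPKM + 0.1) was a rise of Slc4a1, not the fall of Slc26a6. Without T + E2 3 there were 2 rises and 0 falls. Slc4a1, also on the red cell list, passed in 7 alternatives. It had 1, 2 and 1 counts in CON and 11, 27 and 9 in T + E2. With no filter the added rises were Slc4a1 and Cftr, which the main filter had left out for low counts. Apart from these genes and the fewer genes tested under the FPKM filter, the cause was not tested. Proton carriers numbered 8 (6 to 9) and hypoxia genes 2 (2 to 3).

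The replicate numbers name different mice, and same-numbered mice did not deviate together (r of -0.05, 0.03 and 0.05 across genes), so the numbers do not pair them. With the replicate block 1013 genes and 3 carbonic anhydrases passed. Low counts limit Car4, Car7 and Car9, and 3 mice per group limit all comparisons.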
